A study of Mus musculus with 6 samples.

Results

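The DNAJ proteins, also called HSP40 proteins or J-domain proteins, are the largest family of co-chaperones of the HSP70 chaperones. Their members were taken from the deposited gene table by symbol, as every entry beginning with Dnaja, Dnajb or Dnajc followed by a number, which gave 45 of 24421 genes, with 4 in class A, 13 in class B and 28 in class C. The table holds messenger RNA levels of 4T1, a mouse mammary adenocarcinoma cell line described as epithelial in the labels and grown in culture. One group was labelled shHSF1, for a short hairpin RNA against HSF1, the master regulator of heat shock genes, and the other shCTL, for a control hairpin, with 3 libraries each. All 6 libraries share the parental line and the growth conditions, and the labels name neither the hairpin sequences nor whether a group is 1 clone or a mixed population.

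A J domain binds HSP70 and speeds its hydrolysis of ATP, which locks HSP70 onto the substrate that the DNAJ protein delivers. Class A members carry the J domain, a glycine- and phenylalanine-rich stretch and a zinc-binding region, as bacterial DnaJ does. Class B members keep the first pair of these features and lack the zinc-binding region, and class C members share only the J domain, which can sit anywhere in a protein otherwise built for one task, such as clathrin uncoating, splicing or protein import. Cytosolic members work with the constitutive HSP70 Hspa8 and the stress-inducible Hspa1a and Hspa1b, members of the endoplasmic reticulum (ER) lumen with BiP, the product of Hspa5, and mitochondrial members with mortalin, the product of Hspa9. Dnajb1 and Dnaja1 are textbook targets of HSF1 in heat-shocked cells, while Dnajb9, Dnajb11, Dnajc3 and Dnajc10 are induced by the unfolded protein response of the ER.

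HSF1 binds inverted repeats of a short unit, and the promoters of the family were searched for them, since the hairpin was aimed at this factor. RefSeq promoter windows of GRCm38.p6, from 250 bases before to 50 bases after a gene's start, were found for 37 of the 45 members (50 windows, some genes having several starts). The letters searched on both strands were GAANNTTC and TTCNNGAA for pairs of heat shock units, which can overlap by sharing a unit. The ER stress element was searched in its full consensus form. Either heat shock pair was present in 18.9% of the matched members (7 of 37) and in 16.97% of all 27025 genes with a window, so the family held these letters about as often as genes in general. The ER stress element was in 1 member, Dnajc3, and in 0.137% of all genes. A match describes letters in a window and is not a measured binding site. The 4 windows below are shown because they hold these motifs in a class A member whose level was lower in the libraries labelled shHSF1 (Dnaja1), in a class A and a class B member whose groups overlapped (Dnaja4 and Dnajb6), and in the ER member whose level was higher (Dnajc3), with the motifs in capitals. All lie on the plus strand, Dnaja1 at chr4:40722218-40722517, Dnaja4 at chr9:54699309-54699608, Dnajb6 at chr5:29735729-29736028 and Dnajc3 at chr14:118937682-118937981.
Dnaja1: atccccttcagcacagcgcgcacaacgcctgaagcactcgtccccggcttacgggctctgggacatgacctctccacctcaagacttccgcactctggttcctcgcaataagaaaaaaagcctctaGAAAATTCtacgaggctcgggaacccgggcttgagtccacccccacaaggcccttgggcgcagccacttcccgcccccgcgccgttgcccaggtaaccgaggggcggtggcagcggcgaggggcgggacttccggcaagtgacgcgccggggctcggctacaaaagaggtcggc
Dnaja4: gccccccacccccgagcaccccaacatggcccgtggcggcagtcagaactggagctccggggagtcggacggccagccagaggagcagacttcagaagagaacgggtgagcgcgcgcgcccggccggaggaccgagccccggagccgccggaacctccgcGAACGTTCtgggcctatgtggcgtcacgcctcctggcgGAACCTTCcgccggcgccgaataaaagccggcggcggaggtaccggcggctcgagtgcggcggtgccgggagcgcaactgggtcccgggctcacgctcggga
Dnajb6: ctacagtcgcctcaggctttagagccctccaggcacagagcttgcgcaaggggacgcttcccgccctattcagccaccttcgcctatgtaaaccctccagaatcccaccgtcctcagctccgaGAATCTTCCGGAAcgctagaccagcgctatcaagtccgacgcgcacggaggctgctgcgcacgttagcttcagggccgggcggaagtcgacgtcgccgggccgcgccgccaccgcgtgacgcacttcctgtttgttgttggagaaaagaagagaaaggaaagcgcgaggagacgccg
Dnajc3: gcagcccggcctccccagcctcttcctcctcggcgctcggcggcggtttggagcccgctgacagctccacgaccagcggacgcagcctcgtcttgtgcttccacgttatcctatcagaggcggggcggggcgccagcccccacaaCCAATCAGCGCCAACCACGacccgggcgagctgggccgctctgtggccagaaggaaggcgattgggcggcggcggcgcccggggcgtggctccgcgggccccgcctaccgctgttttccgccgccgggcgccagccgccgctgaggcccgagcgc
Distances are from the annotated start of the window shown. The pair in Dnaja1 begins 124 bases before that start, and the 2 other Dnaja1 windows, at starts further downstream, hold none. Those in Dnaja4 begin 90 and 52 bases before it, and the other Dnaja4 window holds none. Those in Dnajb6 begin 127 and 122 bases before it and share their middle unit. The ER stress element of Dnajc3 begins 105 bases before its start. No window of Dnajb1 held the letters searched.

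Depth ran from 23750025 to 36903175 reads assigned to genes per library, computed from the deposited RPKM values (reads scaled to gene length and library total). Hsf1 itself measured 23.2, 13.8 and 15.4 RPKM in replicates 1 to 3 labelled shHSF1, against 18.4, 20.3 and 20.1 RPKM in shCTL. Replicate 1 labelled shHSF1 thus held no less of the target than shCTL did, and every direction below rests on that label as given. Over all 6 libraries the log2 difference of Hsf1 was −0.20 (SE 0.21, limma adjusted p = 0.810). The exact permutation p, two-sided, was 0.5, and 3 against 3 libraries cannot give one below 0.1. Without both replicate 1 libraries the Hsf1 difference was −0.46 (limma adjusted p = 0.0433). The replicate 1 library of each group lay far from the other 4 on the first principal component of all genes, so results are also given without them. The 6 epithelial markers summed to between 1584 and 1847 RPKM in shHSF1 and between 2018 and 2632 RPKM in shCTL, with none at 0. A single epithelial marker reached 1611 RPKM in 1 library, so the sums weigh abundant markers most and do not describe each marker. No single leukocyte or endothelial marker exceeded 0.134 RPKM, and the endothelial Kdr was at 0 in every library. The part of the lower epithelial sum in the results below was not tested. In bulk RNA, fewer expressing cells and less RNA per cell cannot be told apart.

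Of the 45 members, 37 had at least 0.5 RPKM in 3 or more libraries and were tested, all 4 of class A, 9 of class B and 24 of class C. Mean levels of the tested members ran from 0.855 RPKM for Dnajc28 to 109.9 RPKM for Dnaja2, with a median of 18.6, and 23 members averaged 10 RPKM or more. The 4 most abundant, Dnaja2, Dnajc8, Dnajc10 and Dnajc7, made up between 35.3% and 37.9% of the family's summed RPKM in each library. The remaining 8 members were near or at 0. Dnajb3, Dnajb7, Dnajb8, Dnajb13 and Dnajc5g had 0 reads in all 6 libraries, and Dnajc5b had 1 read in 1 library. Dnajc6, which codes for auxilin, the neuronal clathrin-uncoating factor, had between 0 and 5 reads per library. Dnajc12 had 3, 10 and 9 reads in shHSF1 against 1, 1 and 0 in shCTL, or at most 0.230 RPKM, and was not tested.

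No DNAJ member passed an adjusted p of 0.05 over all genes tested with limma, where 3 genes in all did (0.0263% of 11386), 2 of them higher (0.0176%) and 1 lower (0.00878%). None passed either with the replicate block (0.176% of all genes did), without the variance trend (0.193%) or with voom on whole reads (0.0966%). At an unadjusted p under 0.05 there were 5 members, Dnajc3, Dnajc7 and Dnajc22 higher and Dnajc25 and Dnaja1 lower, or 13.5% of the 37, against 11.4% of all genes tested. The groups did not overlap for 10 members (27.0%, against 20% of all genes), 4 that were higher in shHSF1 (10.8%, against 12.9% of all genes) and 6 that were lower (16.2%, against 7.16%). The median log2 difference of the 37 members, shHSF1 minus shCTL, was −0.045 against 0.052 over all genes tested. The difference was above 0 in 16 members and below 0 in 21, and below 0 in 42.9% of all genes tested. In 31 of the 37 the 95% interval lay within a 2-fold change either way. Without both replicate 1 libraries 4 members passed, Dnajc3 and Dnajc7 higher and Dnaja1 and Dnajc25 lower (10.8% of members, against 11.1% of all genes, or 7.04% higher and 4.04% lower). A fit that kept all libraries and took replicate 1 as a batch covariate passed 2, Dnajc25 and Dnajc3 (5.41%, against 5.64%). The share of members passing was in both fits close to that of all genes.

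**Figure D1:**
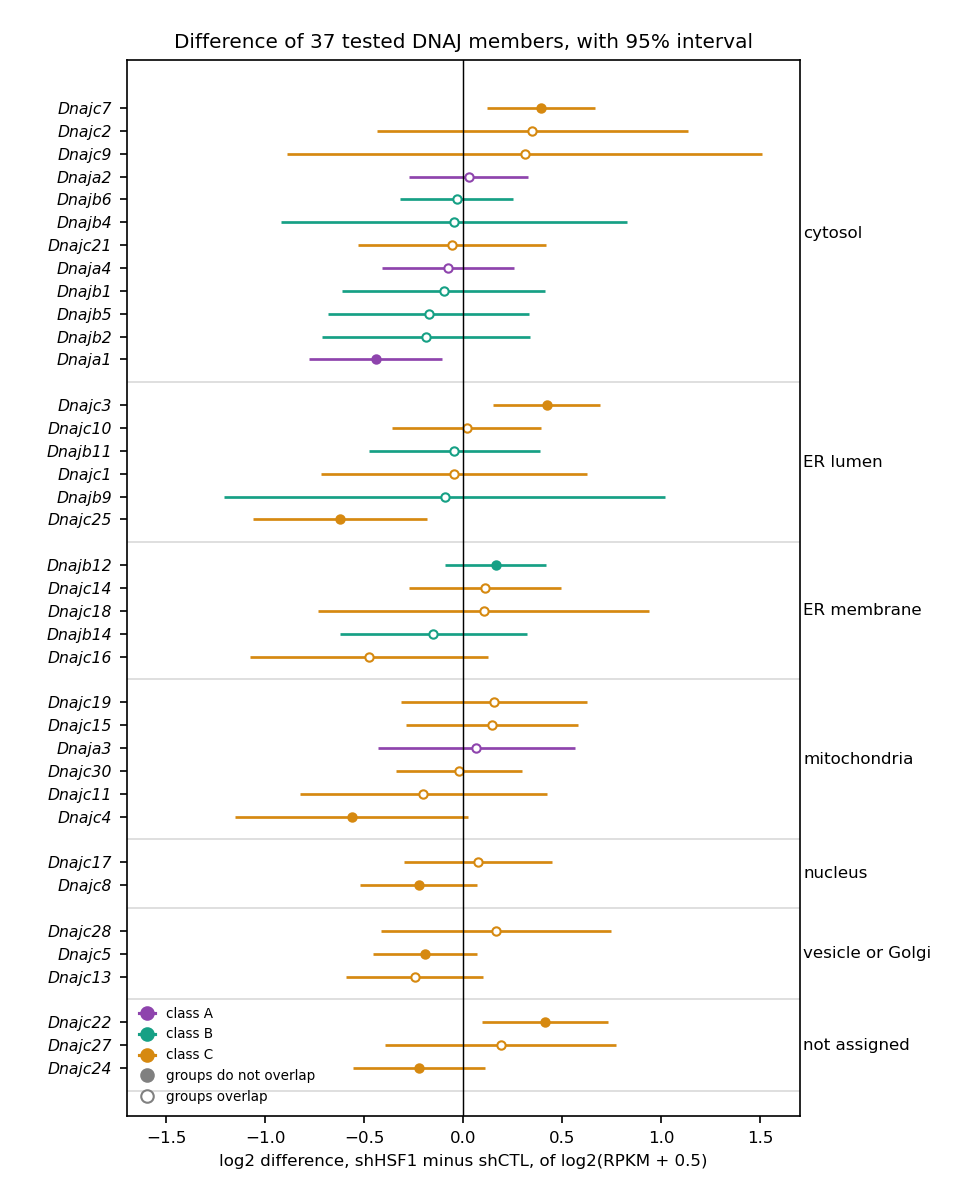
Log2 difference of log2(RPKM + 0.5), shHSF1 minus shCTL, for the 37 tested DNAJ members, grouped by compartment and coloured by class; points are estimates over 3 libraries each, lines are 95% intervals from limma, and filled points mark the 10 members whose groups do not overlap. Dnajc7, Dnajc3 and Dnajc22 lie wholly above 0, and Dnaja1 and Dnajc25 wholly below it.

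Class A holds the general-purpose co-chaperones, and its members took different courses. Dnaja1 (chromosome 4, 40722468 to 40737151, plus strand, mm10), a farnesylated cytosolic partner of Hspa8 that helps refold proteins, measured 23.2, 21.0 and 23.2 RPKM in shHSF1, against 26.6, 34.6 and 31.4 RPKM in shCTL. Every shHSF1 library lay below every shCTL library, and the gap was smallest in replicate 1. The means were 22.5 ± 1.28 RPKM in shHSF1 and 30.9 ± 4.01 RPKM in shCTL (SD, n = 3 each), a log2 difference of −0.44 (SE 0.14, 95% interval −0.78 to −0.10, limma adjusted p = 0.314). Over single libraries left out the log2 difference ran from −0.54 to −0.36, and without both replicate 1 libraries it was −0.57 (SE 0.10, limma adjusted p = 0.0308). Of the annotated Dnaja1 length of 5790 bases, 26.0% overlaps exons of Smu1 on the opposite strand, at a mean of 30.1 RPKM, and no source used here states whether counting used strand, so reads of these genes cannot be told apart there.

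Dnaja2 (chromosome 8, 85537640 to 85555271, minus strand), the other abundant class A co-chaperone of the cytosol, showed no such gap. It had 99.8, 111.1 and 122.5 RPKM in shHSF1 and 104.4, 109.3 and 112.4 RPKM in shCTL, a log2 difference of 0.028 (95% interval −0.27 to 0.33). Dnaja4, a further cytosolic member that responds to heat shock, had 5.71, 5.39 and 5.43 RPKM in shHSF1 against 5.999, 5.507 and 6.005 RPKM in shCTL (log2 difference −0.075, 95% interval −0.41 to 0.26). Dnaja3, the mitochondrial class A member known as Tid1, had 33.1, 19.7 and 22.0 RPKM in shHSF1 and 23.1, 22.1 and 24.5 RPKM in shCTL. Its highest value was in the library labelled shHSF1 replicate 1, and the other 2 shHSF1 libraries lay below all 3 shCTL libraries.

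Class B includes the heat-inducible Dnajb1 and the ER members Dnajb9 and Dnajb11, and in 9 of 9 tested members the log2 difference was within 0.25 of 0, against 59.2% of all genes tested. Dnajb1 (chromosome 8, 83608175 to 83612653, plus strand), the co-chaperone with which HSP70 and HSP110 take protein aggregates apart had 14.1, 20.2 and 19.5 RPKM in shHSF1 against 15.1, 22.8 and 19.98 RPKM in shCTL. The replicate 1 library was the lowest in each group, and the groups overlapped almost fully. Its log2 difference was −0.099 (SE 0.21, limma adjusted p = 0.919), with a 95% interval of −0.61 to 0.41. Dnajb4, a close relative of Dnajb1, had 22.5, 15.9 and 12.6 RPKM in shHSF1 and 28.6, 14.8 and 11.7 RPKM in shCTL (log2 difference −0.048, 95% interval −0.92 to 0.83), again with replicate 1 apart in both groups. Dnajb6, a suppressor of polyglutamine aggregation, was among the most even members, at 28.3, 31.5 and 31.8 RPKM in shHSF1 and 32.8, 29.2 and 31.6 RPKM in shCTL (log2 difference −0.033, 95% interval −0.32 to 0.25).

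Dnajb12 (chromosome 10, 59879591 to 59898016, plus strand), an ER membrane protein that recruits cytosolic HSP70 for the degradation of ER proteins, was the 1 class B member whose groups did not overlap. It stood at 34.0, 34.3 and 33.4 RPKM in shHSF1, against 30.7, 29.4 and 30.6 RPKM in shCTL, and the libraries within a group differed little. The means were 33.9 ± 0.443 RPKM in shHSF1 and 30.2 ± 0.712 RPKM in shCTL (SD, n = 3 each), 12.3% higher in shHSF1, with a log2 difference of 0.17 (SE 0.11, limma adjusted p = 0.624). Dnajb14, its relative in the same membrane, had a log2 difference of −0.15 with overlapping groups, and the neuronal ubiquitin-binding Dnajb2 and the low Dnajb5 had −0.19 and −0.17.

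**Figure D2:**
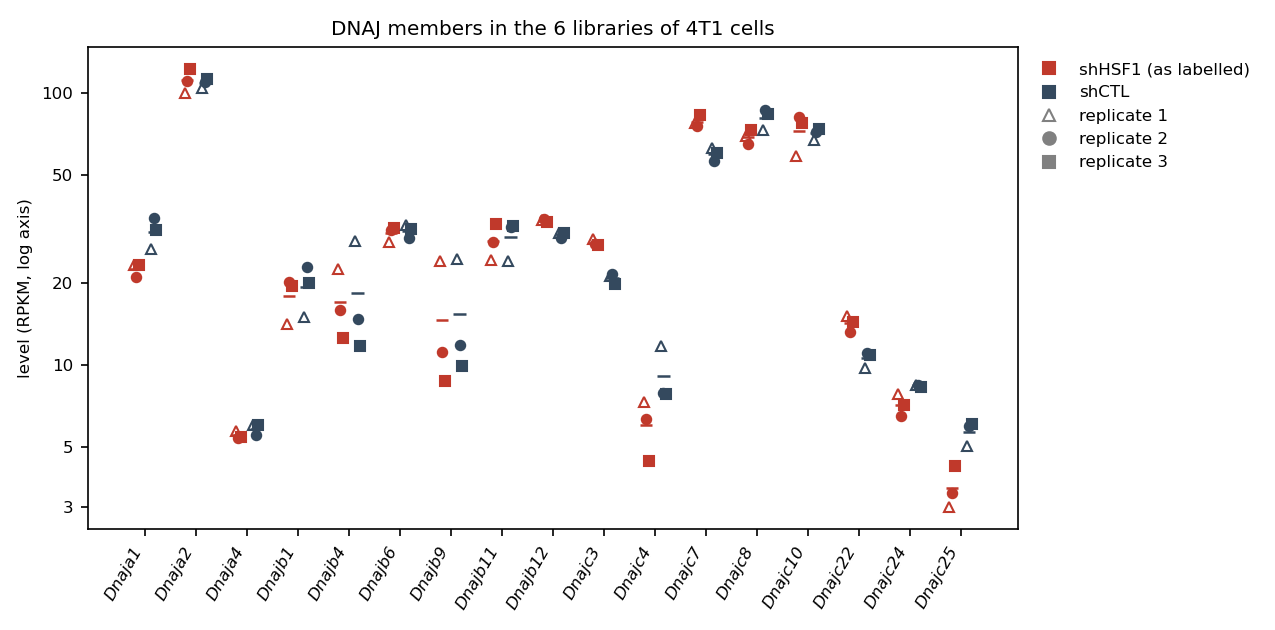
RPKM on a log axis of the 17 DNAJ members described in full, with shHSF1 (red) left of shCTL (dark) for each; symbols are libraries, open triangles replicate 1, and short lines the group means (n = 3). Dnajc3 and Dnajc7 are higher and Dnaja1 and Dnajc25 lower in every shHSF1 library, while Dnajb9, Dnajb4 and Dnajb1 differ more between replicate 1 and the rest than between groups.

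Class C, to which 24 of the 37 tested members belong, held most of the members with the largest differences, and they went both ways. Without overlap, 3 of the 24 were higher and 5 of the 24 lower, against 12.9% and 7.16% of all genes tested. Dnajc3 (chromosome 14, 118937932 to 118981702, plus strand), known as P58IPK, a BiP co-chaperone of the ER lumen that also restrains the stress kinase PERK, had 29.0, 27.8 and 27.6 RPKM in shHSF1, against 21.3, 21.6 and 19.8 RPKM in shCTL. All shHSF1 libraries lay above all shCTL libraries, replicate 1 included. The means were 28.1 ± 0.786 RPKM in shHSF1 and 20.9 ± 0.942 RPKM in shCTL (SD, n = 3 each), a log2 difference of 0.42 (SE 0.11, 95% interval 0.15 to 0.69, limma adjusted p = 0.238). With replicate 1 as a batch covariate the limma adjusted p was 0.0470, without both replicate 1 libraries it was 0.0458, and with the replicate block it was 0.106.

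Dnajc7 (chromosome 11, 100582836 to 100620168, minus strand) is a cytosolic protein with tetratricopeptide repeats that binds both HSP70 and HSP90. Among the members with separate groups that were higher in shHSF1, it was the most abundant. It stood at 77.4, 75.5 and 82.7 RPKM in shHSF1 and at 63.0, 56.1 and 59.98 RPKM in shCTL. The lowest shHSF1 library was above the highest shCTL library by more than the SD of either group, 3.75 and 3.45 RPKM. The log2 difference was 0.39 (SE 0.11, 95% interval 0.12 to 0.67, limma adjusted p = 0.274), and 0.44 (limma adjusted p = 0.0419) without both replicate 1 libraries. Dnajc22, a membrane protein with a J domain, had 15.2, 13.2 and 14.4 RPKM in shHSF1 against 9.75, 11.1 and 10.9 RPKM in shCTL (log2 difference 0.41, SE 0.13, limma adjusted p = 0.318), without overlap.

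Dnajc25 (chromosome 4, 59003193 to 59023398, plus strand), an ER member counted below in the lumen list, had the lowest log2 difference of the family. It stood at 2.995, 3.38 and 4.24 RPKM in shHSF1, against 5.04, 5.95 and 6.07 RPKM in shCTL. The groups did not overlap, and replicate 1 was the lowest library of each. The means were 3.54 ± 0.637 RPKM in shHSF1 and 5.69 ± 0.558 RPKM in shCTL (SD, n = 3 each), with a log2 difference of −0.62 (SE 0.18, 95% interval −1.06 to −0.18, limma adjusted p = 0.279), and a limma adjusted p of 0.0472 with replicate 1 as a batch covariate and 0.0466 without both replicate 1 libraries. Dnajc4 had 7.29, 6.36 and 4.44 RPKM in shHSF1 against 11.7, 7.92 and 7.80 RPKM in shCTL (log2 difference −0.56, SE 0.25, limma adjusted p = 0.455). Its groups were separate, though the highest shHSF1 library came within 1 SD of the lowest shCTL library.

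Smaller gaps without overlap were seen in 3 further class C members. Dnajc8, a nuclear protein found with the splicing machinery and the second most abundant member, had 69.5, 64.9 and 72.9 RPKM in shHSF1 and 73.1, 86.4 and 83.5 RPKM in shCTL, so that the highest and lowest libraries of the groups nearly met (log2 difference −0.23, SE 0.12, limma adjusted p = 0.553). Dnajc24, which acts in the synthesis of diphthamide, the modified histidine of translation elongation factor 2, had 7.84, 6.51 and 7.11 RPKM in shHSF1 against 8.47, 8.47 and 8.30 RPKM in shCTL (log2 difference −0.22, limma adjusted p = 0.613). Dnajc5, the cysteine string protein of secretory vesicles, had 34.2, 37.6 and 36.1 RPKM in shHSF1 against 39.9, 42.6 and 41.0 RPKM in shCTL (log2 difference −0.19, limma adjusted p = 0.576). For each of the 10 members without overlap an exact two-sided permutation test can give no p below 0.1.

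The other class C members overlapped between groups. Dnajc16, of the ER membrane, was lower in every same-numbered comparison, by −0.41, −0.54 and −0.48 on the log2 scale, yet its shHSF1 replicate 1 value of 4.70 RPKM exceeded 4.30 RPKM in shCTL replicate 2. The endosomal Dnajc13, known as RME-8, likewise had −0.22, −0.32 and −0.19. Dnajc2, a ribosome-associated co-chaperone, and Dnajc9, a histone chaperone, had log2 differences of 0.35 and 0.31. Their 95% intervals, from the unpaired fit, ran from −0.44 to 1.13 and from −0.89 to 1.51. Both were higher in every same-numbered comparison, Dnajc2 by 0.59, 0.047 and 0.41 and Dnajc9 by 0.53, 0.14 and 0.26. Of the 37 tested members, all 3 such differences were below 0 in 14 and above 0 in 7, a count not made over all genes. Dnajc10, the ER reductase ERdj5, had 58.6, 81.5 and 77.6 RPKM in shHSF1 and 67.0, 71.9 and 74.0 RPKM in shCTL (log2 difference 0.019, 95% interval −0.36 to 0.40). Dnajc14 shares 36.9% of its annotated length with Ormdl2 on the opposite strand, and its log2 difference was 0.11. Dnajc1, Dnajc17, Dnajc19 and Dnajc30 overlap opposite-strand exons over 12.3% of their length or less. Mean levels of the neighbours were 87.4 RPKM at Dnajc19 (itself 4.98), 12.1 at Dnajc1 (4.54), 19.4 at Dnajc30 (9.69) and 6.35 at Dnajc17 (8.66). Strand use is not stated, so even a short overlap may add reads to the lower gene.

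Cytosolic and ER members were then compared as groups, by their summed RPKM, with the compartments assigned from general knowledge of the proteins. The 3 tested members Dnajc22, Dnajc24 and Dnajc27 were not assigned and are in no compartment list. The list called cytosolic also takes in members found in both the nucleus and the cytosol. Its 12 tested members summed to 375.0, 411.3 and 471.6 RPKM in shHSF1 and to 364.3, 400.1 and 421.2 RPKM in shCTL. The 11 ER members, 6 of the lumen or with a J domain facing it and 5 others of the ER membrane, summed to 220.0, 223.0 and 217.8 RPKM in shHSF1 and to 221.1, 207.8 and 207.1 RPKM in shCTL. Both sums overlapped between the groups, and so did their ratio, with the cytosolic sum 1.704, 1.845 and 2.165 times that of the ER in shHSF1 and 1.648, 1.925 and 2.034 times in shCTL. The median log2 difference was −0.052 over the cytosolic members (4 of 12 above 0) and −0.045 over the ER members (5 of 11 above 0), against 0.052 over all genes tested. Neither direction was stable, since the cytosolic median was 0.016 without both replicate 1 libraries and the ER median ran from −0.12 to 0.18 with single libraries left out. Within the ER, the lumen list had a median of −0.045 and the membrane list 0.11, and its extremes, Dnajc3 at 0.42 and Dnajc25 at −0.62, lay on opposite sides of 0. The 6 members listed as mitochondrial had a median of 0.023, from Dnajc4, whose location is uncertain, at −0.56 to Dnajc19, a subunit of the protein import motor, at 0.16. The ER membrane placement of Dnajc16 and Dnajc18 and the vesicle or Golgi placement of Dnajc28 are likewise less certain than the rest. Sums of 2 smaller lists also had no overlap, and they are given after the members' values were seen. The 3 vesicle or Golgi members, Dnajc5, Dnajc13 and Dnajc28, summed to 60.5, 67.8 and 68.2 RPKM in shHSF1 and to 70.7, 79.8 and 77.4 RPKM in shCTL. The 2 nuclear members, Dnajc8 and Dnajc17, a spliceosome-associated protein, summed to 79.9, 73.3 and 80.9 RPKM in shHSF1 and to 81.7, 94.8 and 91.6 RPKM in shCTL. Their sums consist mainly of members already described, Dnajc5 and Dnajc13 in the first list and Dnajc8 in the other.

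By class, class A members summed to 164.1 ± 8.25 RPKM in shHSF1 and 168.6 ± 7.55 RPKM in shCTL (SD, n = 3 each). Class B summed to 159.1 ± 7.47 RPKM in shHSF1 and 162.9 ± 13.9 RPKM in shCTL, and class C to 576.6 ± 47.8 RPKM in shHSF1 and 555.8 ± 39.4 RPKM in shCTL. None of these differences exceeded the spread between libraries. The median log2 differences were −0.024, −0.093 and 0.047 for classes A, B and C, with 2 of 4, 1 of 9 and 13 of 24 members above 0. Over all genes tested the median was 0.052, with 6500 of 11386 above 0, so class C lay close to genes in general. The class C median turned to −0.012 with median-of-ratios scaling, −0.029 with quantile normalization and −0.022 without both replicate 1 libraries, where that of class A was −0.12. The median over all genes tested moved as well in these 3 fits, from 0.052 to −0.0046, −0.017 and 0.017.

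The 4 members listed as HSF1-inducible, Dnajb1, Dnaja1, Dnaja4 and Dnajb4, summed to 65.5, 62.5 and 60.7 RPKM in shHSF1 and to 76.3, 77.7 and 69.1 RPKM in shCTL, without overlap. The gap lay mostly in Dnaja1. Without it the other 3 summed to 42.3, 41.5 and 37.5 RPKM in shHSF1 and to 49.7, 43.1 and 37.7 RPKM in shCTL, which overlap. All 4 had a log2 difference below 0, from −0.44 to −0.048, as had 42.9% of all genes tested. For 2 of them the direction turned. Dnajb4 was 0.0996 without both replicate 1 libraries, and Dnajb1 was 0.060 without replicate 1 of shHSF1 and 0.030 without replicate 2 of shCTL. The 4 ER stress-inducible members summed to 136.1, 148.8 and 146.9 RPKM in shHSF1 and to 136.9, 137.5 and 136.0 RPKM in shCTL. Of these only Dnajc3 had groups that did not overlap, while Dnajb9, Dnajb11 and Dnajc10 had log2 differences of −0.093, −0.045 and 0.019.

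**Figure D3:**
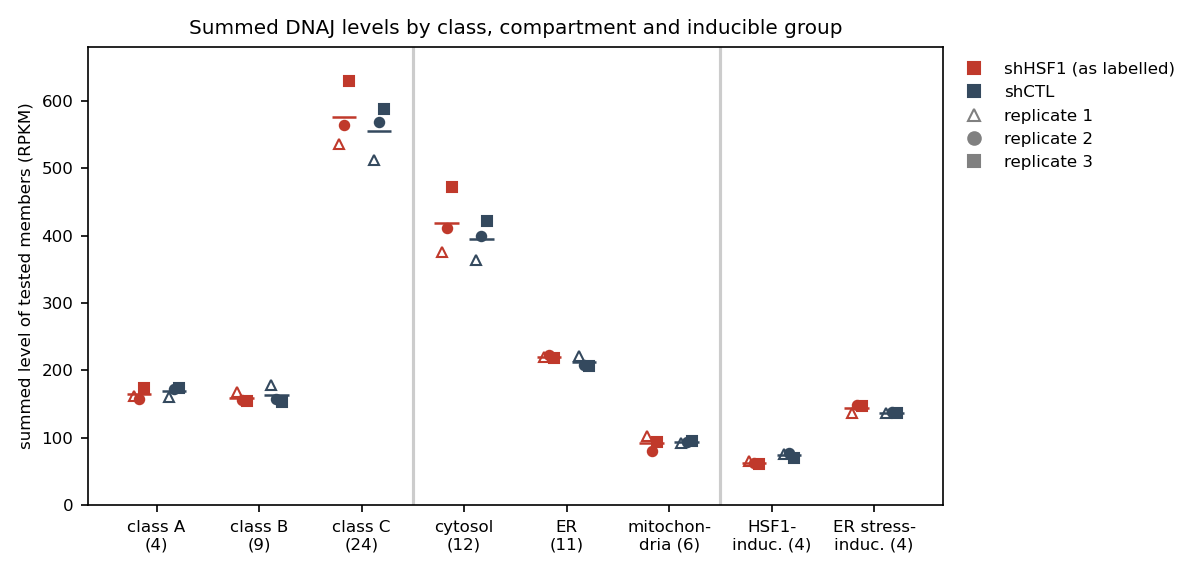
Summed RPKM of the tested members by class, by compartment and by inducible group, with the number of members in parentheses, shHSF1 (red) left of shCTL (dark); symbols are libraries and lines group means (n = 3). Of the 8 groups shown, the HSF1-inducible one has no overlap, at 60.7 to 65.5 RPKM in shHSF1 and 69.1 to 77.7 RPKM in shCTL. That gap lies mostly in Dnaja1, without which the sums overlap. The nuclear and the vesicle or Golgi sums, not shown, do not overlap either.

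For many members the replicate number moved the level more than the hairpin label did. The absolute log2 difference between replicate 1 and the other replicates, averaged over the groups, exceeded that between shHSF1 and shCTL in 24 of 37 members (64.9%, against 65.8% of all genes tested). Replicate 1 lay outside replicates 2 and 3 on the same side in both groups for 22 members, above them in 11 and below in 11 (59.5%, against 61.6% of all genes), so the family shared a shift seen in most genes. Dnajb9, the ER co-chaperone ERdj4 that releases BiP onto the stress sensor IRE1, had 24.1, 11.1 and 8.72 RPKM in shHSF1 and 24.5, 11.8 and 9.89 RPKM in shCTL. Replicate 1 was thus 2.43 times the mean of the others in shHSF1 and 2.26 times in shCTL, while same-numbered libraries differed by no more than 0.17 on the log2 scale. Dnajc9 went the other way, at 16.7, 35.0 and 40.4 RPKM in shHSF1 and 11.4, 31.7 and 33.6 RPKM in shCTL, as did Dnajc2 at 46.6, 56.1 and 83.8 RPKM in shHSF1 and 30.7, 54.3 and 63.0 RPKM in shCTL. Dnajb11, a luminal BiP co-chaperone induced with Dnajb9 in ER stress, was lower in replicate 1, at 24.4, 28.4 and 33.0 RPKM in shHSF1 and 24.1, 32.3 and 32.3 RPKM in shCTL. Within the ER stress-inducible list, replicate 1 was therefore high for Dnajb9, low for Dnajb11 and Dnajc10, and near the others for Dnajc3. Dnajc3, Dnajc7 and Dnajb12 had replicate 1 at between 0.979 and 1.08 times the mean of the others in either group. The labels do not say what the replicate number shares.

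**Figure D4:**
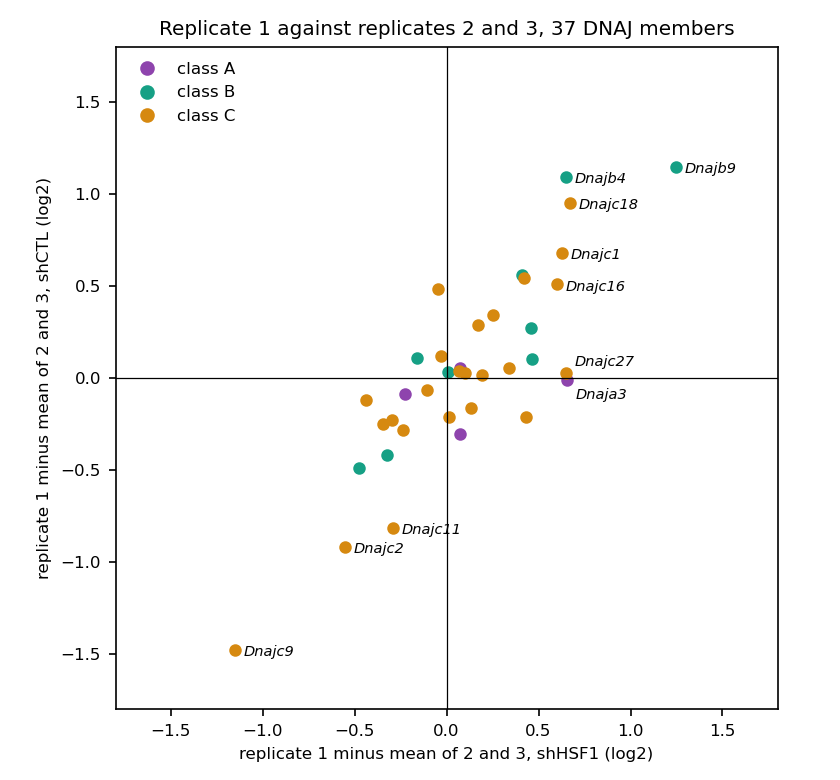
Log2 difference between replicate 1 and the mean of replicates 2 and 3, in shHSF1 (horizontal) and in shCTL (vertical), for the 37 tested DNAJ members coloured by class; members beyond 0.6 on either axis are named. Dnajb9 lies at the upper right and Dnajc9 at the lower left.

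The partners of the DNAJ proteins were taken from a list of 30 genes covering HSP70 and HSP110 chaperones, nucleotide exchange factors, J-domain proteins under other symbols and HSP70 regulators. All were in the table and 28 were tested. With limma none passed in either direction (0.0263% of all genes did), and voom on whole reads gave 0 as well. At an unadjusted p under 0.05 there were 2, both lower (7.14%, against 11.4% of all genes). The median log2 difference was 0.042, and the groups did not overlap for 2 that were higher (7.14%, against 12.9% of all genes) and 4 that were lower (14.3%, against 7.16%). The most abundant, Hspa8, the main HSP70 of the cytosol, had 1209, 987 and 1067 RPKM in shHSF1 and 1049, 1095 and 943 RPKM in shCTL. Hspa5, the BiP with which Dnajc3 works, had 742, 894 and 861 RPKM in shHSF1 and 726, 771 and 770 RPKM in shCTL (log2 difference 0.13, limma adjusted p = 0.813), and Hspa9, the mitochondrial HSP70, had 252, 184 and 227 RPKM in shHSF1 and 146, 179 and 226 RPKM in shCTL. Without both replicate 1 libraries, where 11.1% of all genes passed the test, 1 of the 28 partners did. This was Sec63, the ER J-domain protein of the translocation channel that the symbol rule leaves out. Sec63 had 44.9, 36.2 and 34.4 RPKM in shHSF1 against 36.7, 26.4 and 25.7 RPKM in shCTL. Its log2 difference in that fit was 0.43 (limma adjusted p = 0.0389). The limma adjusted p of Sec63 was 0.511 over all 6 libraries, 0.117 with the replicate block and 0.0548 with replicate 1 as a batch covariate.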

How the data were processed

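RNA was extracted and libraries were made with an mRNA kit, per the labels' protocols, and STAR, featureCounts and the build mm10 are named in the submitters' processing notes. No source used here gives software versions, gene annotation, strand use or multimapping. The authors deposited RPKM per gene, with gene lengths and exon positions, per the file headers. Whole reads were recovered from RPKM and length for 100% of values (tolerance 0.001) and summed to totals. Read counts cover counting error only. Unmatched sample columns numbered 0.

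The test covered the 11386 genes reaching 0.5 RPKM in any 3 libraries and was run on log2(RPKM + 0.5) with limma 3.58.1 in R 4.3.3 (variance trend, no block), with Benjamini-Hochberg adjustment over all of them at 0.05. On that scale, differences of low genes are understated. Groups and replicate numbers came from the titles. Separate cultures are not stated, so the p-values reflect library-to-library spread that may be technical. The exact permutation test and tables used Python 3.11.15, scipy 1.17.1, pandas 2.3.3 and numpy 2.4.6, figures matplotlib 3.10.9, and the fit was tested on simulated data.

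The members, the compartment, inducible and partner lists and the alternatives were chosen with earlier results of these data known. Given in full were members past the test in any of 4 fits (all libraries, replicate block, both replicate 1 libraries left out, replicate 1 as covariate), the 8 inducible members, the 2 most abundant of each class, and up to 5 higher and 5 lower with the largest differences without overlap. After centring each group, libraries with the same number correlated across all genes at 0.58, 0.18 and 0.68, each over 0.1, which met the criterion for pairing, and the replicate block was fitted as an alternative to the unpaired test reported. Crosswise, replicate 3 of shHSF1 correlated at 0.51 with replicate 2 of shCTL, and replicate 2 of shHSF1 at 0.24 with replicate 3 of shCTL, above its own number's 0.18. Replicate 1 stood apart in both groups, and centring then sets replicates 2 and 3 against it. The criterion thus cannot tell pairing of replicates 2 and 3 by number from this shared shift. Alternatives were pseudocounts of 0.1 and 1, other filters, scalings and variance models, voom on whole reads, the replicate block, replicate 1 as covariate or left out, and each library left out.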

Additional observations from a re-analysis of the deposited data

How the results depend on the processing

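No DNAJ member passed with the replicate block (0), with any single library left out (0 to 0) or under any other alternative except both replicate 1 libraries left out (4) and replicate 1 as a batch covariate (2). The counts over all genes were 3 as reported, 18 with no filter on low values, 22 with no variance trend, 20 with the replicate block, 1262 without both replicate 1 libraries, 642 with replicate 1 as a covariate, 11 with voom on whole reads, and 0 to 8 with single libraries left out. The counts of 0 came on omitting replicate 2 of shHSF1 (778 genes at an unadjusted p under 0.05) or of shCTL (771). Below that p were 5 members in the reported fit. Without both replicate 1 libraries Hsf1 was −0.46 (adjusted p = 0.0433), Dnaja1 −0.57, Dnajc25 −0.60, Dnajc3 0.41 and Dnajc7 0.44. The adjusted p of these 4 members ran from 0.0308 to 0.803, 0.0466 to 0.735, 0.0458 to 0.691 and 0.0419 to 0.742 over all alternatives, and for Hsf1 from 0.0433 to 0.986.

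Medians near 0 moved with scaling. With median-of-ratios scaling they were −0.10 for all members, −0.082 for class A, −0.012 for class C and −0.11 for cytosolic members. With quantile normalization they were −0.093, −0.079 and −0.029 for all members, class A and class C, and without both replicate 1 libraries −0.12 for class A, −0.022 for class C and 0.016 for cytosolic members. The median of all genes moved as well, from 0.052 to −0.0046 with median-of-ratios scaling and to −0.017 with quantile normalization. With single libraries left out the medians ran from −0.071 to −0.0013 (all members), −0.12 to −0.0018 (class A), −0.26 to −0.0013 (class B), −0.032 to 0.062 (class C), −0.097 to 0.039 (cytosolic) and −0.12 to 0.18 (ER), and Hsf1 from −0.42 to −0.049. The cause was not tested.

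Of 17 members given in full, 10 kept their direction throughout. The other 7 reversed, all with adjusted p of 0.609 or more where they did. With median-of-ratios scaling Dnaja2 was −0.033 and Dnajc10 −0.041, and with quantile normalization Dnajc10 was −0.010. Without both replicate 1 libraries Dnajb4 was 0.0996 and Dnajb6 0.056. With single libraries left out the values ran from −0.045 to 0.10 for Dnaja2, −0.26 to 0.060 for Dnajb1, −0.18 to 0.062 for Dnajb11, −0.31 to 0.32 for Dnajb4, −0.080 to 0.020 for Dnajb6, −0.51 to 0.29 for Dnajb9 and −0.071 to 0.16 for Dnajc10. The 8 untested members had 10 reads or fewer in any library, and 5 of them had 0 in every library.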
